A study of Mus musculus with 6 samples.

Results

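Of the 24062 genes in the count tables, 8 are the subject here: the pancreatic protease genes Cpa1 and Cpb1 (carboxypeptidases), Ctrb1, Ctrl and Ctrc (chymotrypsins) and Cela1, Cela2a and Cela3b (elastases). They were chosen by name as digestive protease genes of the acinar cell, with Cpa1 as the early member and the other 7 as late ones, and all 8 had a row in the tables. RNA was sequenced from flow-sorted cells of dorsal pancreatic buds (mouse embryos), in 6 libraries with 1 pooled library per group. Mutant and control embryos each gave E14.5 epithelium, E12.5 epithelium and E12.5 mesenchyme. The alleles of the mutant embryos included 1 copy of the mTmG reporter, Cre driven from Nkx2-5 (Nkx2.5-Cre+/-) and Pbx2+/-. The controls are labelled mTmG alone, so the reporter, whose cells are red (Tomato) until Cre turns them green (GFP), is common to all groups. Nkx2-5 is expressed in pancreatic mesenchyme, whereas the protease genes are transcribed in epithelium. Which fluorescence gate gave which fraction, and how control mesenchyme without Cre was gated, is not stated in the labels.

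Acinar cells make digestive proteases as inactive precursors (zymogens), store them in granules and release them into the duct. Carboxypeptidases remove amino acids from the end of a protein, Cpa1 those with aromatic or aliphatic side chains and Cpb1 the basic ones, while chymotrypsins and elastases cut within the chain. In the mouse bud Cpa1 already marks the multipotent cells at the tips of the branching epithelium, and most other zymogen genes follow as those cells become acinar. Their promoters are known targets of PTF1, a complex of Ptf1a with Rbpj or Rbpjl that binds an E-box together with a TC-box, and of Nr5a2.

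The 300 bases around the start site (250 before, 50 after) were taken from RefSeq, build GRCm38.p6, and matched 7 of the 8 genes, Ctrc having no entry. The 4 windows shown are those that held both an E-box and a TC-box string, at any spacing and on either strand. Capitals mark any match on either strand to CANNTG (E-box), TTTCCC (TC-box, GGGAAA on the other strand), AAGGTCA (Nr5a2) or TATAAA. The windows lie at chr6:30638968-30639267 (plus strand) for Cpa1, chr8:111690961-111691260 (minus strand) for Ctrb1, chr15:100687871-100688170 (minus strand) for Cela1 and chr4:141825956-141826255 (minus strand) for Cela2a.
Cpa1: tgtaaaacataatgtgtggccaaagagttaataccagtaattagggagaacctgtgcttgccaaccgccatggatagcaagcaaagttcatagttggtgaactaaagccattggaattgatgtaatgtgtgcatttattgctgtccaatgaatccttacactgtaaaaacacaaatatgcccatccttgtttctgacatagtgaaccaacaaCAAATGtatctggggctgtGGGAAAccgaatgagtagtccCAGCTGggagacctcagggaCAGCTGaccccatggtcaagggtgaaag
Ctrb1: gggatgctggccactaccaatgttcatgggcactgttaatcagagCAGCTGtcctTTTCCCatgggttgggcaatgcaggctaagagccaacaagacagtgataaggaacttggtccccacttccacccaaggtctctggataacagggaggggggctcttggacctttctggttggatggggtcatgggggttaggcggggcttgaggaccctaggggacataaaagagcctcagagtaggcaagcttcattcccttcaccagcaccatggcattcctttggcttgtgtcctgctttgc
Cela1: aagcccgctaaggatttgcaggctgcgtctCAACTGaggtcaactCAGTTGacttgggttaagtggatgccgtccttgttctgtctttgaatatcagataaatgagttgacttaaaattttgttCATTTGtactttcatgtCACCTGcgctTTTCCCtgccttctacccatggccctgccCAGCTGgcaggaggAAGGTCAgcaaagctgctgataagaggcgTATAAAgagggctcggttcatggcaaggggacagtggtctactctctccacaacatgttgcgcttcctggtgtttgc
Cela2a: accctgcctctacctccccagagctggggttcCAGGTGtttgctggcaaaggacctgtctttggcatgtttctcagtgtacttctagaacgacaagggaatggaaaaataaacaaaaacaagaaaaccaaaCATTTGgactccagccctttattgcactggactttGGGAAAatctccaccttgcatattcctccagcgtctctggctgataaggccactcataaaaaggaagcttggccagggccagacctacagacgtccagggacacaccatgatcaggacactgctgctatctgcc
All 7 member windows held CANNTG, as did 72.3% of 32851 windows of all genes, and 4 held TTTCCC, against 25.2%. Both motifs were in 4 of the 7 windows and in 18% of all windows. In Ctrb1 and Cela1 the 2 motifs began 10 bases apart, E-box first with 4 bases between, a spacing looked up only after these windows were seen, which 0.0944% of all windows held on either strand. Positions relative to the start site, counted as 0, were -205 and -195 in Ctrb1 and -109 and -99 in Cela1. In Cpa1 the nearest E-box began 19 bases from the TC-box and in Cela2a 35 bases. AAGGTCA was found in the Cela1 window alone. TATAAA was found in those of Cela1 (at -27) and Cpb1 (at 35, after the start site). A match is a string of letters, and binding was not measured.

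The 6 libraries held 14032569 to 20276045 counts on genes. With 1 library per group no test across samples was possible, and each ratio compares 2 libraries, whose 95% interval holds nothing but counting error. Levels are CPM scaled by TMM (trimmed mean of M values). A gene was measured in a pair where it reached 5 CPM in at least 1 of its 2 libraries, and was called higher or lower at 2-fold or more with an interval that left out 1. Between the E14.5 libraries the log2 ratios of all genes at 100 CPM or more had an SD of 0.514, and between the E12.5 epithelial libraries 0.246. Pbx2 stood at 56.0 CPM in mutant and 89.9 CPM in control mesenchyme. In epithelium it stood at 47.3 CPM in the E14.5 library labelled mutant against 34.0 CPM in control, and at 49.7 against 54.5 CPM at E12.5. These levels do not show the loss of a Pbx2 copy in epithelium, so the epithelial libraries are called those labelled mutant. The 25 general epithelial genes (Epcam, Cdh1, keratins, claudins) summed to 3817 to 8109 CPM in the 4 epithelial libraries and to 122 and 150 CPM in mutant and control mesenchyme. The 24 general mesenchymal genes (collagens, Pdgfra, Vim) were read at high levels in both fractions. At E12.5 they summed to 6080 CPM in epithelium labelled mutant and 5370 CPM in control epithelium. In mutant and control mesenchyme they summed to more, 10180 and 11530 CPM. In E14.5 epithelium, which has no mesenchyme library beside it, they summed to 11850 CPM in the library labelled mutant and 5685 CPM in control.

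At E14.5 the protease genes stood lower in the mutant-labelled library than in control. The 8 genes together made 1916 CPM in the library labelled mutant and 8128 CPM in control, 0.190% and 0.765% of the library's counts. Of the 8 genes, 7 were called lower, where 6.4% of the 12145 measured genes were called lower and 9.64% higher, and Ctrl was not measured. Ratios ran from 3.21-fold lower (Cela1) to 18-fold lower (Cela2a), with a median log2 ratio of -2.67 against -0.03 for all measured genes. Cela2a passed the level filter only through the control library.

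Both carboxypeptidases were lower at E14.5. Cpa1 stood at 1239 CPM in the library labelled mutant and 4464 CPM in control, and at E12.5 at 698 and 700 CPM. The E14.5 ratio was 3.6-fold lower (3.54 to 3.66), and at E12.5 the ratio was 1.003-fold lower (0.979 to 1.03). Cpb1 stood at 5.89 CPM (82 counts) in the E14.5 library labelled mutant and 57.1 CPM (833 counts) in control, 9.69-fold lower (7.72 to 12.3). At E12.5 Cpb1 had 9 counts in the library labelled mutant and none in control. Cpa1 was thus abundant at both stages, while Cpb1 was near the limit of detection in the earlier libraries. Cpa1 lies at chr6:30639218-30645363 and Cpb1 at chr3:20248264-20275733 (mm10).

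Of the chymotrypsins, Ctrb1 and Ctrc were lower and Ctrl was at or near 0. Ctrb1, the main chymotrypsinogen, stood at 472 CPM in the E14.5 library labelled mutant and 2845 CPM in control, 6.02-fold lower (5.87 to 6.18). At E12.5 it was 30.2 and 44.2 CPM, 1.46-fold lower (1.31 to 1.64) and short of the threshold. Ctrc, whose human counterpart breaks down trypsinogen, stood at 10.3 CPM in the E14.5 library labelled mutant and 66.0 CPM in control, 6.38-fold lower (5.36 to 7.66), with 6 and 42 counts at E12.5. RefSeq lists Ctrc of this assembly as a transcribed pseudogene and GENCODE M21 as protein coding, and 305 of its 1428 exon bases are shared with Cela2a on the same strand. Ctrl, another chymotrypsin-like protease, had no read in either E14.5 epithelial library, which allows up to 0.215 CPM in the library labelled mutant and 0.206 CPM in control (3 counts). It had 0 and 4 counts in the E12.5 epithelium labelled mutant and control, and 13 and 4 in mutant and control mesenchyme. No stretch of 50 bases of its annotated transcripts recurred in another gene. Its neighbour Pskh1 was read in all 6 libraries, at 59.7 to 105 CPM. The sources used here do not name the annotation behind the counts, so the zeros of Ctrl cannot be read as absence of the transcript. Ctrb1 lies at chr8:111686519-111691010, Ctrl at chr8:105932003-105933862 and Ctrc at chr4:141814962-141846359.

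The elastases spanned the widest range of E14.5 ratios. Cela1, an elastase that the mouse but not the human pancreas makes, stood at 178 CPM in the library labelled mutant and 572 CPM in control, 3.21-fold lower (3.07 to 3.35). Cela2a stood at 4.67 CPM (65 counts) against 83.9 CPM (1225 counts), 18-fold lower (14 to 23.4). Cela3b stood at 5.10 CPM (71 counts) in the library labelled mutant and 40.8 CPM (596 counts) in control, 8.01-fold lower (6.25 to 10.4). At E12.5 Cela1 stood at 67.0 and 58.7 CPM in the library labelled mutant and control, 1.14-fold higher (1.05 to 1.24) and not called. Cela2a had 7 and 33 counts there and Cela3b 10 and 9. Cela1 was therefore the one elastase well above the detection limit at E12.5. Of the 50-base stretches of Cela3b, 19.25% recur in Cela3a, which was not analysed here, and 15.61% of those of Cela2a recur in Ctrc or Casp9, so part of their reads could be split or discarded. Cela1 lies at chr15:100674421-100687921, Cela2a at chr4:141814962-141826160 and Cela3b at chr4:137420999-137430540.

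**Figure D1:**
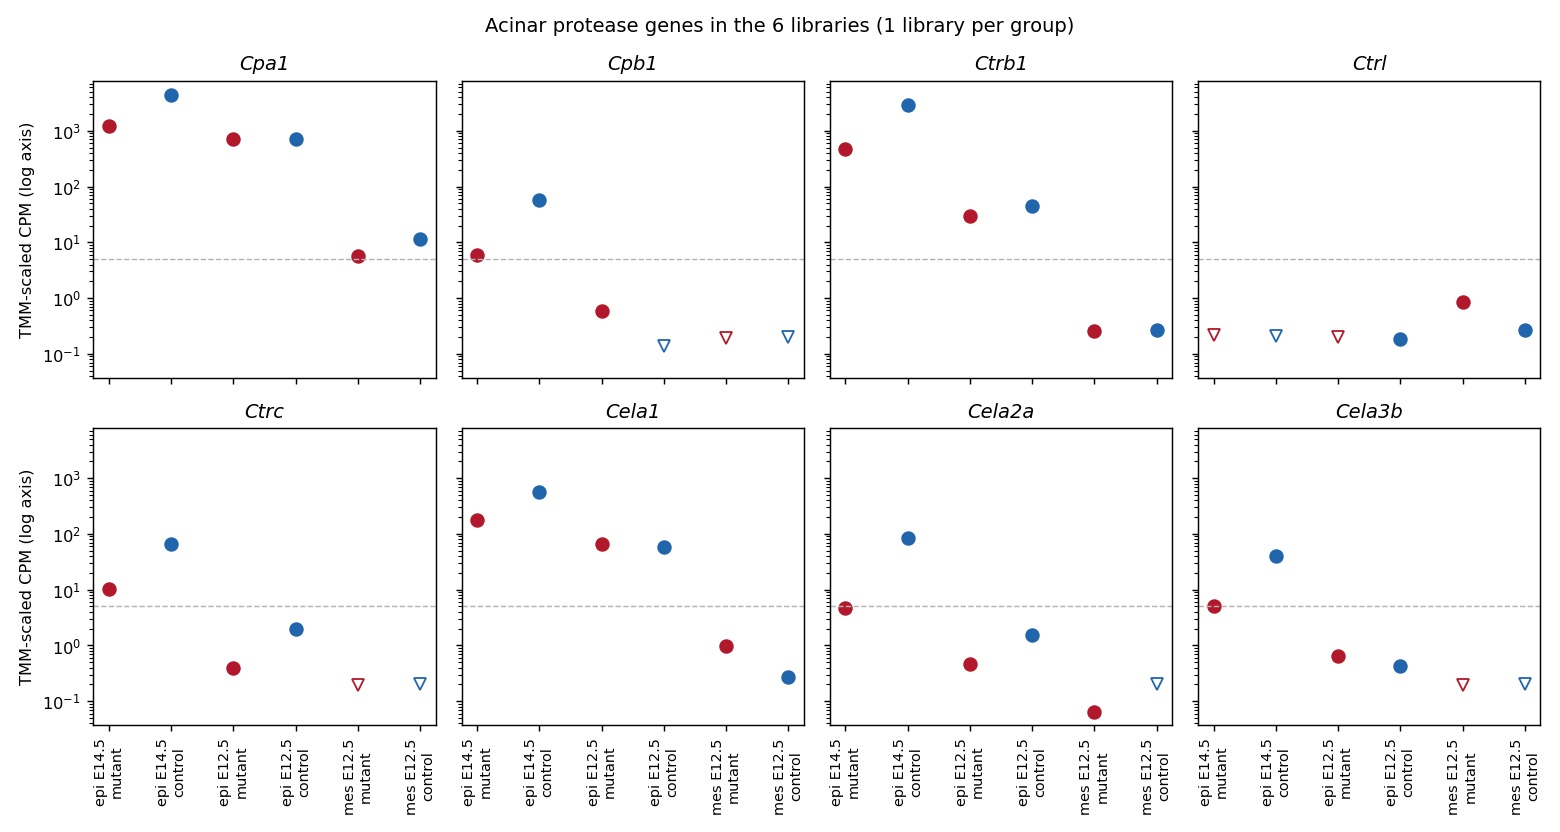
TMM-scaled CPM (log axis) of each protease gene in the 6 libraries, 1 point per library, mutant in red and control in blue; open triangles mark libraries with no read, drawn at the level of 3 counts, and the dashed line is 5 CPM. Cpa1, Ctrb1 and Cela1 lie above the line in all 4 epithelial libraries, and the E14.5 library labelled mutant lies below its control for every gene but Ctrl.

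Marker genes of other cell types also differed between the libraries, while cell composition itself was not measured. At E14.5 the general epithelial genes summed to 4506 CPM in the library labelled mutant and 8109 CPM in control, 10 of 24 measured being lower and 0 higher, with a median log2 ratio of -0.908. Of the 25 listed, 0 and 1 had no read. General mesenchymal genes summed to 11850 and 5685 CPM, with 17 of 23 higher and none of the 24 at 0. Over all measured genes 6.4% were called lower and 9.64% higher. Endocrine genes summed to 2364 and 3079 CPM and ductal and trunk genes to 1913 and 3593 CPM. Fewer acinar cells and less RNA per cell cannot be told apart in bulk libraries, and the part of the lower epithelial share in the protease result was not tested. Set against the median ratio of those epithelial genes, Cela2a was 9.58-fold lower, Cpb1 5.17-fold, Cela3b 4.27-fold, Ctrc 3.40-fold and Ctrb1 3.21-fold. On that scale Cpa1 (1.92-fold lower) and Cela1 (1.71-fold lower) fell short of 2-fold, which left 5 called genes. The share of all genes called on that scale is not given here, so this count has no background beside it.

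At E12.5 none of the 3 measured members (Cpa1, Ctrb1, Cela1) was called in either direction, where 3.21% of 11991 genes were called lower and 1.79% higher. The 8 genes summed to 797 CPM in the library labelled mutant and 807 CPM in control, with the general epithelial genes at 3817 and 4407 CPM. The change of the log2 ratio from E12.5 to E14.5 was -1.84 for Cpa1 (-1.89 to -1.80), -2.04 for Ctrb1 (-2.21 to -1.88) and -1.87 for Cela1 (-2.01 to -1.74). It was -2.41 for Cela2a (-3.64 to -1.18) and -3.63 for Cela3b (-4.98 to -2.29), both on few counts at E12.5. For Ctrc it was -0.35 (-1.61 to 0.91), an interval that holds 0. Ctrc already had a log2 ratio of -2.33 at E12.5 (6 and 42 counts) and Cela2a of -1.76 (7 and 33 counts). These intervals cover counting error, and whether the genotype ratio differs between stages was not tested across samples.

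**Figure D2:**
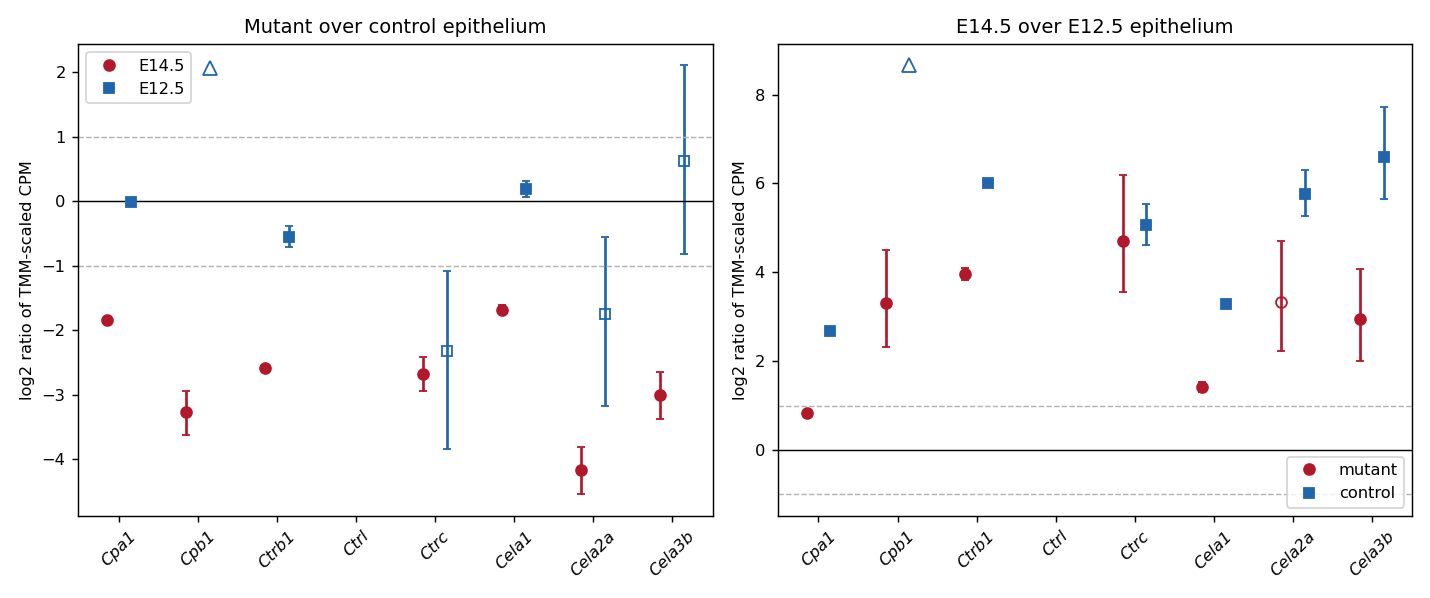
Log2 ratios of TMM-scaled CPM for each gene, with 95% counting intervals. The left panel shows mutant over control (E14.5 red, E12.5 blue) and the right panel E14.5 over E12.5 (mutant red, control blue). Open circles and squares are under 5 CPM in both libraries. Open triangles are bounds against 3 counts, at any level, and dashed lines mark 2-fold. Measured E14.5 genotype ratios lie between -4.17 and -1.68, while Cpa1 and Cela1 at E12.5 lie at -0.00 and 0.19.

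Between the stages the protease genes were higher at E14.5, in both genotypes. In control epithelium 7 genes were called higher, where 6.53% of 12136 genes were called higher and 11.2% lower, and of these Cpb1, Ctrc, Cela2a and Cela3b passed the level filter only through the E14.5 library. Ctrb1 was 64.4-fold higher (60.4 to 68.8), Cela2a 54.0-fold (38.2 to 78.8), Cela3b 96.3-fold (50.4 to 212) and Ctrc 33.4-fold (24.5 to 46.6). Cpb1, with no read at E12.5, was at least 404-fold higher against a floor of 3 counts, or 328-fold at the lower limit of counting error. The smallest control ratios were those of Cela1, 9.75-fold higher (9.18 to 10.4), and Cpa1, 6.38-fold higher (6.26 to 6.49). The general epithelial genes were also higher in that pair, at 8109 CPM at E14.5 and 4407 CPM at E12.5 with a median log2 ratio of 0.76. Relative to them Ctrb1 was 38.0-fold higher, Cela2a 31.9-fold, Cela3b 56.9-fold, Ctrc 19.7-fold, Cela1 5.75-fold and Cpa1 3.77-fold. In the libraries labelled mutant 5 of 6 measured genes were called higher, where 6.27% of 12167 genes were called higher and 5.89% lower. There Ctrb1 was 15.6-fold higher (14.2 to 17.2), Ctrc 26.2-fold (11.8 to 72.7), Cpb1 9.96-fold (4.998 to 22.6), Cela3b 7.76-fold (3.98 to 16.9) and Cela1 2.66-fold (2.48 to 2.87). Of these, Cpb1, Ctrc and Cela3b passed the level filter only through the E14.5 library. Cpa1, at 1.78-fold higher (1.73 to 1.82), was not called, and Cela2a (65 and 7 counts) was under 5 CPM at both stages. The 2 stage comparisons and the 2 genotype comparisons use the same 4 libraries and are not independent. The deposited table of the E12.5 control epithelium has a name of another form and date than the other 5, so any difference of run would be confounded with it.

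Setting each late gene against Cpa1 within the same library needs no scaling between libraries. Such a ratio still carries any effect of deduplication, which can lower the counts of very abundant short transcripts. That effect on Cpa1 and Ctrb1 was not tested. Cpa1 made 64.7% (64.1 to 65.3) of the 8 genes' counts in the E14.5 library labelled mutant and 54.9% (54.6 to 55.2) in control. At E12.5 it made 87.5% (86.9 to 88.1) and 86.7% (86.2 to 87.2). The intervals are exact binomial 95% intervals. For every 100 Cpa1 counts, Ctrb1 had 38.1 in the E14.5 library labelled mutant and 63.7 in control, and at E12.5 4.33 and 6.31. Cela2a had 0.377 and 1.88 at E14.5, and 0.0659 and 0.222 at E12.5. Cpb1 had 0.475 and 1.28 at E14.5, and Cela3b 0.411 and 0.915.

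Between the E14.5 libraries 5 of the 6 late genes with a value were lower relative to Cpa1 in the mutant-labelled library, the median log2 difference being -0.989. Cela2a was 4.99-fold lower relative to Cpa1, Cpb1 2.69-fold, Cela3b 2.22-fold, Ctrc 1.77-fold and Ctrb1 1.67-fold. Cela1 was 1.12-fold higher relative to Cpa1, at 14.4 against 12.8 counts per 100 Cpa1 counts. All 6 counting intervals left out equality. From E12.5 to E14.5 all 6 late genes with a value were higher relative to Cpa1, with a median log2 difference of 2.5 in the libraries labelled mutant and 3.21 in control. Cela1 moved least in both, 1.5-fold in the libraries labelled mutant and 1.53-fold in control. Ctrb1 moved 8.80-fold and 10.1-fold. The late genes were grouped by name, and Cela1 lay closer to Cpa1 than to the other late genes in each of these contrasts.

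**Figure D3:**
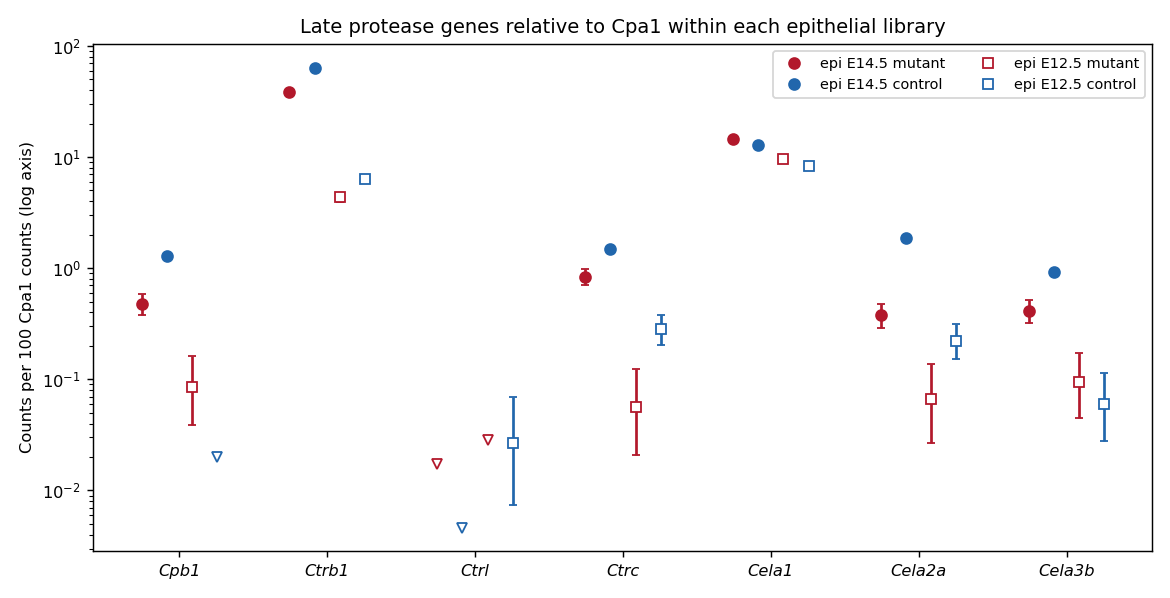
Counts of each late gene per 100 Cpa1 counts (log axis) in the 4 epithelial libraries, E14.5 as filled circles and E12.5 as open squares, mutant red and control blue, with exact 95% intervals; triangles mark libraries with no read, drawn at 3 counts. Cela1 stays between 8.38 and 14.4 in all 4 libraries, while Ctrb1 ranges from 4.33 to 63.7.

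Per kilobase of exon the order of the genes also differed between the E14.5 libraries, and the effect of deduplication on this order was not tested. In control Ctrb1 stood highest at 3240 CPM per kilobase, followed by Cpa1 at 2551. In the library labelled mutant Cpa1 stood first at 708 CPM per kilobase and Ctrb1 second at 538. Cela1 came next in both, at 77.3 and 248 CPM per kilobase. At E12.5 Cpa1 led at 399 CPM per kilobase in the library labelled mutant and 400 in control. Ctrb1 (34.4 and 50.3) and Cela1 (29.0 and 25.4) followed there, in an order that turns round with the length of the longest transcript in place of the union of exons. In the E14.5 control the intervals of Cela2a (48.7) and Ctrc (46.2) overlapped. Ctrc, Cela3b, Cela2a and Cpb1 lay between 0.180 and 0.395 CPM per kilobase in the E12.5 library labelled mutant, with overlapping intervals.

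Mesenchyme gave the background of the sort. Cpa1 stood at 698 CPM in the E12.5 epithelium labelled mutant against 5.79 CPM (90 counts) in mutant mesenchyme, and at 700 CPM in control epithelium against 11.5 CPM (171 counts) in control mesenchyme. These ratios were 121-fold (98.0 to 150) and 61.0-fold (52.5 to 71.4) higher in epithelium. Ctrb1 had 4 counts in each mesenchyme library, and Cela1 had 15 in mutant and 4 in control mesenchyme. All 3 measured genes were called higher in epithelium in both genotypes, where 12.9% of genes in mutants and 13.6% in controls were called higher, and 5.42% and 7% lower. Among the measured genes, Ctrb1 and Cela1 passed the level filter only through epithelium. Cpb1, Ctrc and Cela3b had no read in mesenchyme and Cela2a had 1 in the mutant.

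The measured neighbouring proteases and secretory products of the acinar programme, listed by name, were lower at E14.5 as well. Among all measured genes 6.4% were called lower and 9.64% higher. Of 9 other pancreatic proteases 6 were measured and all 6 were called lower in the library labelled mutant. Of these, 4 (Prss1, Prss3, Try5 and Try10) passed the level filter only through the control library. Prss2, a trypsin, stood at 15.2 CPM in the library labelled mutant and 95.5 CPM in control. The trypsin genes Prss1 (8 and 663 counts) and Try10 (3 and 873 counts) had the largest ratios, but the trypsin family has near-identical copies between which reads can be shared. Of 18 lipases and other secretory products 7 were measured and all 7 were called lower, among them Pnliprp1 (a lipase-related protein, 1594 and 7850 CPM) and Clps (the lipase cofactor colipase, 288 and 1166 CPM). Pnliprp2 and Sycn passed the level filter only through the control library, and Amy2b and Reg1 were 1.72-fold lower relative to the general epithelial genes. The list of activator and inhibitor genes was mixed: of 10 listed 6 were measured, 2 called lower and 3 higher, with a median log2 ratio of 0.699. The 2 lower ones were Spink3, the trypsin inhibitor, 5.16-fold lower (36.1 and 187 CPM), and Serpini2, a serpin of acinar cells, 8.50-fold lower (38.5 and 327 CPM). The 3 higher ones were A2m, Serpina1c and Serpina1e. Tmprss15, the intestinal enzyme that activates trypsinogen, had no read in any of the 4 epithelial libraries.

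Most regulators of these genes were lower as well, with a median log2 ratio of -1.52. Of 7 acinar factors 5 were called lower at E14.5 and 0 higher, where 6.4% of all measured genes were called lower and 9.64% higher. Ptf1a stood at 56.8 CPM in the library labelled mutant and 189 CPM in control (3.32-fold lower, 3.07 to 3.60), and its PTF1 partner Rbpjl at 50.8 and 317 CPM (6.24-fold lower, 5.76 to 6.76). Bhlha15 (Mist1, a factor of secretory cell maturation) stood at 47.0 and 199 CPM, Nr5a2 at 9.48 and 27.2 CPM and Gata4 at 70.5 and 195 CPM. Relative to the general epithelial genes, Rbpjl (3.32-fold lower) and Bhlha15 (2.25-fold lower) stayed past 2-fold, while Ptf1a (1.77-fold lower), Nr5a2 (1.53-fold lower) and Gata4 (1.48-fold lower) did not. Rbpj, the ubiquitous partner, stood at 45.1 and 55.8 CPM and the secretory factor Xbp1 at 497 and 964 CPM, neither called. At E12.5 none of the 7 was called, with Ptf1a at 45.3 CPM in the library labelled mutant and 51.3 CPM in control. Between stages Bhlha15 was 9.30-fold higher at E14.5 in the libraries labelled mutant and 26.2-fold in control, while Ptf1a was 1.25-fold and 3.68-fold higher, the smaller of which was not called. Of 8 granule and secretion genes 2 of the 7 measured were called lower, the cholecystokinin receptor Cckar (137 and 585 CPM) and the pancreatic disulfide isomerase Pdia2 (5.24 and 44.4 CPM).

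**Figure D4:**
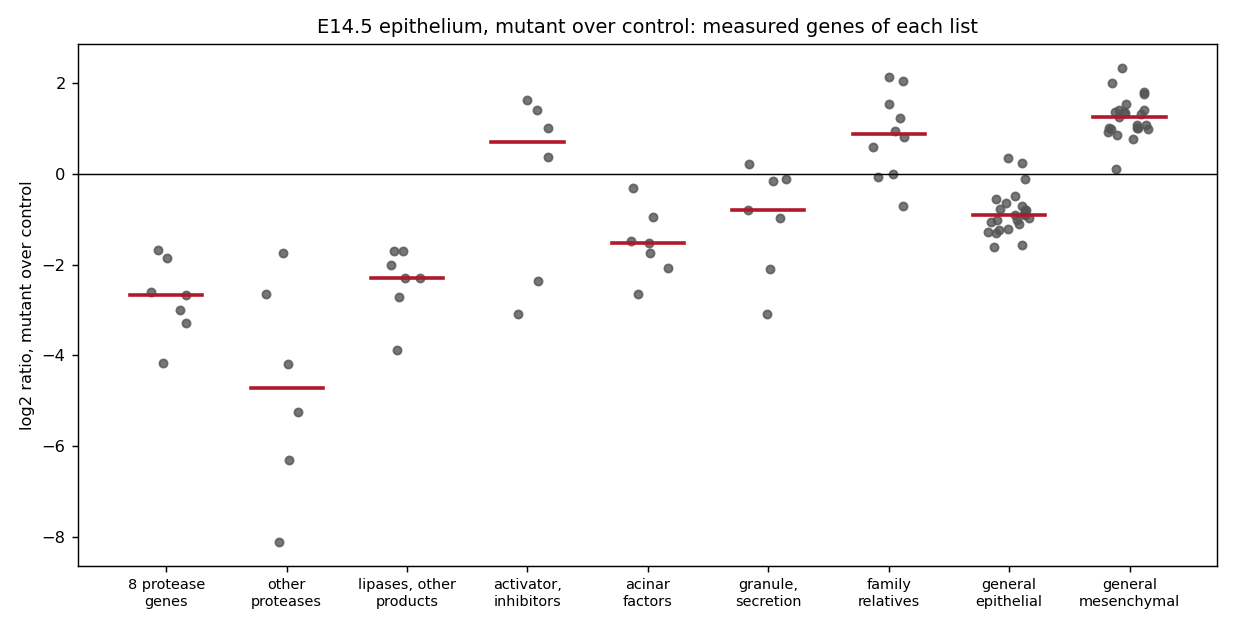
Log2 ratio of the E14.5 library labelled mutant over control for the measured genes of each list, 1 grey point per gene, with the list's median as a red bar. The 7 measured protease genes have a median of -2.67, the general epithelial genes of -0.908 and the general mesenchymal genes of 1.26.

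Other genes with a similar profile over the 6 libraries were ranked by the distance between centred log2(CPM + 0.5) values, among 12027 named genes at 5 CPM or more in epithelium. The 5 nearest to Cpa1 were Cckar (distance 0.784), Ptf1a (0.87), Cldn10 (a claudin, 0.873), Tuba4a (a tubulin, 0.984) and Cpn1 (a plasma carboxypeptidase subunit, 1.07). Nearest to the mean of the 7 late genes were Kcnq1 (a potassium channel, 0.703), Prss2 (a trypsin, 0.768), Arhgdig (1.03), Sfn (1.17) and Cfi (complement factor I, 1.2). That mean includes Ctrl, and 6 libraries give these distances no test.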

How the data were processed

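RNA was sequenced from sorted epithelial and mesenchymal cells in 6 libraries, 1 per group. The authors deposited raw counts per gene symbol for each library, described as deduplicated in the table names, which can lower the counts of very abundant short transcripts. The submitters' processing notes name mm10, Cufflinks 2.2.1 and Cuffdiff 2.2.1. The sources used here do not name the aligner, counter, annotation or strand setting. Summary lines did not enter the totals. Reads outside genes made up 4.69% to 8.84% of all reads, ambiguous ones 1.53% to 1.72% and multiply aligned ones 13.72% to 20.05%.

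Counts were scaled to CPM with TMM factors (0.941 to 1.047) from edgeR 4.0.16 in R 4.3.3. Log2 ratios of 2 libraries have exact conditional binomial (Clopper-Pearson) 95% intervals, computed in Python 3.11.15 with scipy 1.17.1. Since no molecular identifiers are described, reads may not be separate molecules, and all intervals and floors reflect counting error alone. A library with no read was set to a floor of 3 counts, and no ratio was given where the other library lay under that floor. Intervals of a late gene relative to Cpa1, and of a ratio between stages, used a normal approximation on the log of the 4 counts. No test across samples was made, because the labels give 1 library per group. The ratio and call were tested on simulated counts with 200 changed genes: for the E14.5 genotype comparison (11816 genes) changes of 1.5 and 3 (log2) were called in 100% of cases and unchanged genes in 0%. The simulated counts carried counting (Poisson) error alone, as the intervals assume, and the changed genes were taken above a minimum level. The simulation therefore checks the computation and gives no rate of false calls between real libraries.

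Positions and exon lengths came from GENCODE M21 on GRCm38, the assembly of mm10. The genes and lists, chosen with earlier results of these data known, were named by rule: all 8 genes, the genes of the fixed lists, and the 5 genes nearest in profile to Cpa1 and to the late mean. Alternatives were DESeq2 1.42.0 size factors, plain CPM, leaving the 50 most abundant genes out of the scaling, scaling to general epithelial genes, thinning, a 20 CPM minimum or none, 1.5-fold or 4-fold as the threshold, calls by fold alone, and changes to the late list. Part of the genotype and some genes are not reported here.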

Additional observations from a re-analysis of the deposited data

Results flagged for a closer look

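Cela1 and Cpb1 had genotype ratios of opposite sign at the 2 stages, and the difference was not tested, since each stage has 1 library per genotype. Cela1 had a log2 ratio of -1.68 at E14.5 (178 CPM in the library labelled mutant, 572 CPM in control) and of 0.19 at E12.5 (67.0 and 58.7 CPM). The E12.5 value lies within the SD of 0.436 that genes at 10 to 100 CPM showed between those libraries, and its sign was the same under every scaling tried, from 0.15 with plain CPM to 0.34 relative to the general epithelial genes. Cpb1 had a log2 ratio of -3.28 at E14.5 (82 and 833 counts) and at E12.5 a bound of 2.07 against 3 counts, from 9 counts in the library labelled mutant and 0 in control. Cela3b also changed sign, with log2 ratios of -3.00 at E14.5 and 0.63 at E12.5, but its E12.5 interval (-0.82 to 2.11, from 10 and 9 counts) holds 0.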

How the results depend on the processing

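The E14.5 count of 7 genes lower held under DESeq2 size factors, plain CPM, the scaling without the 50 most abundant genes, thinning, both filters, 1.5-fold and no interval condition. It was 5 relative to the general epithelial genes and at 4-fold, where Cpa1 and Cela1 dropped out. The control stage count of 7 genes higher was the same under all alternatives. Relative to the general epithelial genes the median log2 ratio was -1.77 for the E14.5 genotype pair, 0.145 for the E12.5 pair and 4.99 for the control stage pair. With plain CPM the E12.5 genotype median was -0.0427. With a minimum of 20 CPM the mutant stage pair kept 3 measured genes, 2 called higher, with a median of 1.41, since 3 genes dropped below the filter. With no filter the E12.5 genotype pair had 1 gene higher and 2 lower. Under the same setting both fraction pairs had 6 genes higher in epithelium (median 3.3 in controls and 2.3 in mutants), and Ctrl was called lower in mutants, the 1 such call. All these added calls rest on low counts. Shares of all genes called are given for the main setting only, so counts under the alternatives have no background beside them. With 20 counts or more in both libraries the control stage difference of late genes from Cpa1 was 2.74 over 4 genes. Leaving out each late gene in turn gave -1.15 to -0.826 for the E14.5 genotype pair, 3.08 to 3.34 for the control stage pair and 2.49 to 2.51 for the mutant stage pair. The length of the longest transcript changed 6 ranks per kilobase, all at E12.5. No paired analysis was possible because each group has 1 library and the labels carry no replicate numbers. At this depth, genes with fewer than about 20 counts (Cpb1, Ctrc, Cela2a and Cela3b in the E12.5 library labelled mutant) have wide intervals, and no value here has a replicate check.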

Other observations

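Of 16 protease genes of the same families that belong to other cells, 10 were measured, 4 were called higher in the E14.5 library labelled mutant and 0 lower, where 9.64% of all measured genes were called higher and 6.4% lower. The mast cell chymase Cma1 stood at 57.4 CPM in the library labelled mutant and 24.4 CPM in control (2.35-fold higher, 2.07 to 2.67). Cpa3, the mast cell carboxypeptidase, stood at 97.5 and 50.1 CPM and was not called. Cpxm1 and Cpz, carboxypeptidase-like secreted proteins, stood at 108 and 24.5 CPM and at 39.2 and 13.4 CPM. Prtn3, a neutrophil protease, had 107 and 27 counts and was called higher, passing the level filter only through the library labelled mutant. Of the 14 listed neutrophil and mast cell genes 11 were measured, 2 called higher (Cma1 and Prtn3) and 5 lower. The 5 were the neutrophil genes Ltf (0 and 597 counts), Ngp (16 and 946), S100a9 (14 and 531), S100a8 (42 and 422) and Camp (2 and 210). All 5 passed the level filter only through the control library. Cpe, the carboxypeptidase that processes prohormones in endocrine cells, stood at 371 and 387 CPM. Neutrophil elastase, Elane, had 15 and 11 counts. Among protease inhibitors outside the acinar granule, A2m (10.8 and 3.49 CPM), Serpina1c (63.2 and 31.1 CPM) and Serpina1e (26.4 and 9.93 CPM) were called higher in the library labelled mutant, and the Serpina1 genes are close copies that can share reads. A2m passed the level filter only through the library labelled mutant.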
